A study of Mus musculus with 4 samples.

Results

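The 10 genes described here, Pcdh11x, Cdh18, Ncam2, Nxph1, Chrm3, Grm8, Gfra1, Ntrk2, Nebl and Fgf13, were picked as a list of names known mainly from neurons, out of 32285 genes in the count matrices. They were chosen by name with earlier results of these libraries in view, and mainly by their levels in aged against young hepatocytes. Levels with age in hepatocytes are therefore described without a test, and tests are kept for other measures, such as position in the lobule. The livers came from mice of the inbred strain C57BL6/J, all male and wild type. The aged mice were 30 months old (2 libraries) and the young mice 2 months old (2 libraries). Nuclei of stored frozen tissue were loaded on a 10x Chromium 3′ chip, which reads largely unspliced nuclear RNA as UMIs, unique molecular identifiers that each mark 1 captured molecule. The labels call the libraries replicates without tying each one to its own mouse, so p-values measure the spread between libraries, which may be technical.

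In the brain, cadherins, protocadherins and immunoglobulin adhesion molecules hold the membranes of neighbouring cells together and help neurites and synapses form. Muscarinic and metabotropic glutamate receptors are G protein coupled receptors for acetylcholine and glutamate, and neurotrophin and GDNF receptors pass survival signals to neurons. The liver lobule runs from the portal triad, where blood enters, to the central vein, where it leaves. Periportal hepatocytes lead in gluconeogenesis and urea synthesis, and pericentral hepatocytes lead in glutamine synthesis and in oxidation of foreign compounds.

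The aged libraries held 11362 and 14267 barcodes with 38457709 and 54777101 UMIs, and the young libraries 2666 and 14718 barcodes with 11799751 and 17809372 UMIs. Hepatocyte-like nuclei, named from hepatocyte markers, numbered 5537 and 8241 in aged replicates 1 and 2 and 1386 and 8937 in young replicates 1 and 2. Their median depth was 2117 and 2979 UMIs in the aged and 3600.5 and 925 UMIs in the young libraries, so young replicate 2 was the shallowest. Apart from 47 nuclei, each hepatocyte-like cluster was drawn mostly from 1 library, with clusters 17, 19 and 20 from aged replicate 1, clusters 9, 12, 13, 15 and 18 from aged replicate 2, cluster 0 from young replicate 1 and clusters 6, 7 and 8 from young replicate 2. All 12 hepatocyte markers were seen in at least 5% of nuclei of every cluster, other classes included, so the name rests on the lack of 3 leading markers of another class. The genes described here were left out of the clustering and were even so among the 10 genes of largest fold in 5 hepatocyte-like clusters. These were cluster 9 (Cdh18), cluster 12 (Chrm3, Grm8, Pcdh11x and Ncam2), cluster 13 (Cdh18, Ntrk2 and Gfra1), cluster 15 (Pcdh11x, Chrm3 and Grm8) and cluster 19 (Nxph1).

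Clusters 9, 13 and 18 were not led by hepatocyte markers, with 1 leading neuron marker and at most 1 leading hepatocyte marker each. They held 3803 of the 8241 hepatocyte-like nuclei of aged replicate 2 (46.1%) and at most 1.68% of those of any other library. In aged replicate 2 their 12 hepatocyte markers summed to 21471 counts per 1000000 UMIs, against 25425 in the other hepatocyte-like nuclei and 17872 in other classes, and cluster 18 stood lowest of the clusters 9, 13 and 18 at 17684. Landmark genes of the central vein region summed to 5352.5 counts per 1000000 UMIs in these clusters, against 553 in the other hepatocyte-like nuclei of aged replicate 2. They made up 95.3% of the pericentral zone of that library as cut below, so results along the lobule are also given without them. Pairs of libraries shared between 2 and 62 barcodes, at most 0.542% of the smaller library.

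Promoter windows of 250 bases before the RefSeq transcription start (GRCm38.p6, the build of the count matrices) are shown for Chrm3, Grm8, Ncam2 and Nebl, which were lower toward the central vein in aged hepatocytes, and for Nxph1, which was higher there. The table had windows for 9 of the 10 genes, all but Pcdh11x. The strand is minus for Nebl (chr2:17731135-17731384), Chrm3 (chr13:10360804-10361053) and Grm8 (chr6:28135147-28135396), and plus for Ncam2 (chr16:81200447-81200696) and Nxph1 (chr6:8949769-8950018). Each reads 5′ to 3′ along its gene, and capitals mark matches to 1 of 8 short motifs on either strand.
Chrm3: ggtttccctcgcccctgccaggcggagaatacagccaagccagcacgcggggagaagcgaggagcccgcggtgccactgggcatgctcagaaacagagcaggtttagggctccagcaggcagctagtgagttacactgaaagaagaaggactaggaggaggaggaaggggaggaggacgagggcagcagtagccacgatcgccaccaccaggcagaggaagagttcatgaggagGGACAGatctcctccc
Grm8: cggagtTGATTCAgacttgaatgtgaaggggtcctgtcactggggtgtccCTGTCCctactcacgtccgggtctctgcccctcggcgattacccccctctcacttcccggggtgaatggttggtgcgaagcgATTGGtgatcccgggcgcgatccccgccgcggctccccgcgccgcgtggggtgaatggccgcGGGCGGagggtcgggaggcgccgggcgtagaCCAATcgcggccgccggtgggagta
Ncam2: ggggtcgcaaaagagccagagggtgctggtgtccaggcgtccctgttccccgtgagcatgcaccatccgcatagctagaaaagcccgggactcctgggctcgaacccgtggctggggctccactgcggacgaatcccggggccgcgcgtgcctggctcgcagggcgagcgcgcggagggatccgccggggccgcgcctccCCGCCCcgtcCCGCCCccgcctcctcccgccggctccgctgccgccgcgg
Nebl: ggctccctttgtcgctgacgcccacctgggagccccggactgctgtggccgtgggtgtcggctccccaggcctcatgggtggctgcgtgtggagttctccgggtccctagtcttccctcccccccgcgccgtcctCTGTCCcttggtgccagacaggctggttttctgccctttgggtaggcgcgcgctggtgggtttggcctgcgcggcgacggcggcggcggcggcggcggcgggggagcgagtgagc
Nxph1: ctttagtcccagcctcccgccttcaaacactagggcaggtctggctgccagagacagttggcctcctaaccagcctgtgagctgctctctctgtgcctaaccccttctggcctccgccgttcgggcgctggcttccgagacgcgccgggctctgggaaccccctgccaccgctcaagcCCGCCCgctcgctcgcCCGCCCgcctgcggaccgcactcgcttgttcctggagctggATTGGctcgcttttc
The motifs were the TATA box TATAAA, the CCAAT box CCAAT, the GC box GGGCGG, the CRE core TGACGT, the AP-1 site TGANTCA, the left and right arms of the REST site, TCAGCAC and GGACAG, and the HNF4A core CAAAGTC. REST is a repressor of neuronal genes outside the nervous system, and the letters of its right arm stood once in each of the windows of Chrm3, Grm8 and Nebl, as in 18.7% of 32851 windows of that length. The GC box letters stood 2 times in Ncam2 and in Nxph1 and once in Grm8, and were in 32.7% of all windows. CCAAT letters stood 2 times in Grm8 and once in Nxph1 (33.9% of windows), and the AP-1 letters once in Grm8 (6.75%). No letters of the other 4 motifs were in these 5 windows. The windows were rich in G and C, from 61.2% in Chrm3 to 75.2% in Ncam2, against a median of 52.4% over all windows. A match is a run of letters and not a shown site.

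Pcdh11x, an X-linked protocadherin of the delta family, was the gene with the largest fitted change. It stood at 245 and 359 counts per 1000000 hepatocyte-like UMIs of the library (CPM) in aged replicates 1 and 2, and at 3.43 and 4.39 CPM in young replicates 1 and 2. Both aged libraries were far above both young ones. The fitted log2 fold change of aged over young was 6.30 (SE 0.42). Here and below this is an edgeR estimate on counts summed per library and scaled by the TMM method. On that scale Pcdh11x averaged 305 ± 74.3 CPM in aged and 3.85 ± 0.21 CPM in young libraries (SD, n = 2 each).

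Cdh18, a type II cadherin of neurons, stood at 554 and 901 CPM in the aged and at 53.1 and 89.4 CPM in the young libraries. The groups did not overlap, and the log2 fold change was 3.41 (SE 0.45). Ncam2, an immunoglobulin adhesion molecule of axons and synapses, stood at 316 and 532 CPM in aged and at 121 and 151 CPM in young libraries, with a log2 fold change of 1.67 (SE 0.38). Ncam2 was thus well detected in young hepatocytes too.

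Nxph1, neurexophilin 1, is a secreted ligand of alpha-neurexins. It stood at 609.5 and 80.2 CPM in aged replicates 1 and 2, against 4.14 and 17.8 CPM in young replicates 1 and 2. The aged libraries lay above the young ones but differed from each other more than for any other of these genes, and the log2 fold change was 5.08 (SE 1.06). Without aged replicate 1 it was 2.95. Without clusters 9, 13 and 18, Nxph1 stood at 14.1 CPM in aged replicate 2, below the 17.7 CPM of young replicate 2. Those clusters held 95.3% of the pericentral zone of aged replicate 2 and 1.85% of that of young replicate 2. This overlap therefore sets an aged sum with few pericentral nuclei against a whole young one, and nothing is read from it. By zone (below), aged replicate 2 stood above both young libraries, at 175 CPM in the pericentral and 10.9 CPM in the periportal sum.

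Among the receptors, Chrm3, the M3 muscarinic acetylcholine receptor, stood at 225 and 491 CPM in aged and at 55.3 and 32.5 CPM in young libraries (log2 fold change 3.02, SE 0.53). Grm8, a metabotropic glutamate receptor that lowers cyclic AMP, stood at 259 and 497 CPM in aged and at 39.0 and 21.1 CPM in young libraries (log2 fold change 3.65, SE 0.53). For both receptors the aged libraries stood above the young ones. Gfra1, the GDNF co-receptor that works with Ret, did not separate the ages. Its level was 620.4 and 1764 CPM in aged and 839 and 783 CPM in young libraries, with aged replicate 1 lowest and aged replicate 2 highest of the 4 (log2 fold change 0.57, SE 0.57). Without aged replicate 2 the log2 fold change was -0.30. Ntrk2, the BDNF receptor TrkB, was scarce, with 91 and 427 UMIs in aged and 1 and 40 UMIs in young hepatocytes, or 5.32 and 13.1 against 0.143 and 3.99 CPM (log2 fold change 2.20, SE 0.97). The lower aged library was close to the higher young one. The single UMI of young replicate 1 is under the floor of 3 counts, which is 0.429 CPM there.

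Nebl and Fgf13 act inside the cell. Nebl encodes nebulette, an actin-binding protein of Z-discs, and stood at 263 and 154 CPM in aged and at 3.71 and 7.69 CPM in young libraries (log2 fold change 5.25, SE 0.49). Fgf13 is a fibroblast growth factor homologue that is not secreted and binds sodium channels. It stood at 1.87 and 2.29 CPM in aged and at 2.43 and 3.59 CPM in young libraries (log2 fold change -0.48, SE 0.54), so the name of old-hepatocyte gene does not hold for it. Of the 10 genes, 8 had both aged libraries above both young ones, where 25.9% of all 15319 genes tested did, and 1 (Fgf13) had both below, where 25.7% did. Since the genes were chosen for this contrast, nothing is read from these counts. Without clusters 9, 13 and 18, Pcdh11x stood at 595, Ncam2 at 813, Chrm3 at 861, Grm8 at 822 and Cdh18 at 732 CPM in aged replicate 2. These sums lack most pericentral nuclei of that library, while the young sums hold the whole lobule. They are therefore no check of the contrast between the ages. All 10 passed the filter on low counts. Over all genes, 5 passed an adjusted p of 0.05 with age in hepatocytes (0.0326%), 4 higher (0.0261%) and 1 lower (0.00653%) in aged libraries.

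**Figure D1:**
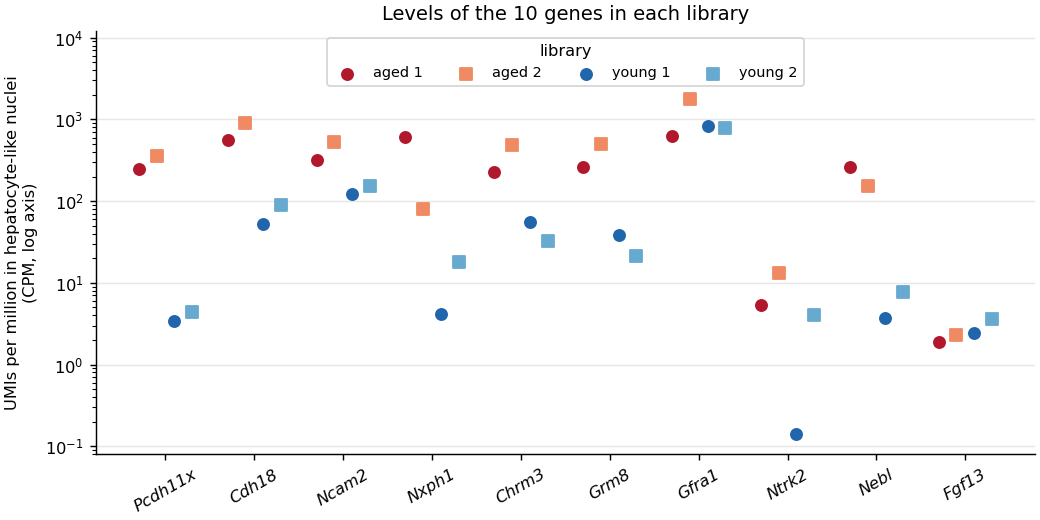
Level of each gene in hepatocyte-like nuclei, in CPM on a log axis, with 1 point for each of the 4 libraries (aged left, young right). For Pcdh11x both aged points (245 and 359 CPM) stand far above both young points (3.43 and 4.39 CPM), while the Gfra1 points of the ages overlap and the Fgf13 points all lie between 1.87 and 3.59 CPM.

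Shares of nuclei with a UMI were compared after thinning each nucleus to 1000 UMIs and leaving out shallower nuclei, which were 1553 and 1125 in the aged and 69 and 5077 in the young libraries. A Pcdh11x UMI was then seen in 13.0% and 15.6% of aged hepatocyte-like nuclei and in 0.152% and 0.363% of young ones. The exact binomial 95% intervals, which cover counting error only, were 11.997 to 14.1% and 14.7 to 16.4% for the aged libraries and 0.0184 to 0.547% and 0.198 to 0.608% for the young ones. Without thinning, the shares were 20.5% and 24.1% in aged and 0.794% and 0.459% in young libraries. Cdh18 was seen in 30.0% and 44.9% of aged and 3.72% and 6.94% of young nuclei after thinning, and Gfra1 in 42.4% and 77.2% of aged and 51.7% and 53.2% of young ones. Nebl was in 21.1% and 13.0% of aged and 0.228% and 0.622% of young nuclei. In endothelial-like nuclei, which hold hepatocyte RNA as well (below), the thinned Pcdh11x share was 9.50% and 13.2% in aged and 0 of 48 and 0 of 497 nuclei in young libraries, which allows up to 6.25% and 0.604%. Their median depth was 1156 and 1337 UMIs in aged and 1474 and 1082.5 UMIs in young libraries. A share of nuclei with a UMI in aged hepatocytes may hold a part of free RNA, which was not tested.

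Pcdh11x was unevenly spread over aged hepatocyte-like nuclei. At 1000 UMIs a nucleus, its variance over nuclei was 3.52 and 5.06 times its mean in aged replicates 1 and 2, while for Cdh18, Ncam2, Nxph1, Chrm3, Grm8, Gfra1 and Nebl this ratio lay between 1.11 and 1.83. The 10% of nuclei with the most Pcdh11x UMIs held 88.5% and 86.4% of all its UMIs. This value is high for any gene seen in few nuclei, so it is not by itself a sign of uneven spread. It was 57.4% and 80.3% for Nebl and 50.1% and 100% for Nxph1 in aged replicates 1 and 2. Nuclei with at least 5 Pcdh11x UMIs out of 1000 were 1.13% and 2.42% of aged hepatocyte-like nuclei (45 of 3984 and 172 of 7116), and 0 of 1317 and 0 of 3860 in young libraries. They held 30.2% and 45.7% of its UMIs in the aged libraries. Most lay toward the portal end, with 84.4% and 58.7% of them in the periportal zone and 4.44% and 1.74% in the pericentral zone, where all nuclei of that depth were 39.5% and 37.5% periportal and 34.0% and 30.7% pericentral. The 0 counts allow a share of up to 0.228% and 0.0777% in the young libraries (3 counts). Endothelial-like nuclei with at least 5 UMIs were 3 of 242 and 7 of 653 in the aged libraries (1.24% and 1.07%), and stellate/fibroblast-like ones 0 of 274 and 3 of 752.

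Along the lobule the genes did not behave as one. Within each library, hepatocyte-like nuclei were ranked by how strongly landmark genes of the central vein region exceeded those of the portal region. The top 33.3% were summed as the pericentral zone and the bottom 33.3% as the periportal zone. Zones cut from this score are stretches of a gradient, not cell types, and none of the 10 genes entered it. In the aged libraries 1202 of 13897 genes tested were higher in pericentral sums (8.65%) and 1167 lower (8.40%). Of the 10 genes, 3 were higher, 5 lower and 2 did not pass. In the young libraries 1114 genes passed (8.02%), 583 higher (4.20%) and 531 lower (3.82%), and 1 of the 10 genes was higher, 3 lower and 6 not passed.

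Chrm3 had the steepest gradient in the aged libraries. Its TMM-scaled level was 29.0 and 52.8 CPM in pericentral and 492 and 904 CPM in periportal sums of aged replicates 1 and 2, and 15.9 and 6.82 CPM in pericentral and 126 and 55.3 CPM in periportal sums of young replicates 1 and 2. All 4 libraries were lower in the pericentral sum. The log2 ratio of pericentral over periportal was -4.09 in aged (SE 0.10, edgeR adjusted p = 7.4e-08) and -2.99 in young libraries (SE 0.14, edgeR adjusted p = 4.8e-06). Grm8 was at -3.51 in aged (SE 0.12, edgeR adjusted p = 2.5e-07) and -3.43 in young libraries (SE 0.20, edgeR adjusted p = 1.2e-05). It stood at 45.1 and 79.9 CPM in pericentral and 538 and 878 CPM in periportal sums of the aged libraries, and at 6.38 and 4.20 CPM in pericentral and 89.6 and 34.2 CPM in periportal sums of the young libraries. Ncam2 was at -2.49 in aged (SE 0.11) and -2.46 in young libraries (SE 0.12), and passed in both (edgeR adjusted p = 5.9e-07 and 4.8e-06). These 3 genes were thus periportal at both ages, and the differences of their aged and young gradients did not pass (Chrm3 -1.10, edgeR adjusted p = 0.121; Grm8 -0.09, adjusted p = 0.998; Ncam2 -0.03, adjusted p = 0.996). The Chrm3 difference passed without aged replicate 1 (-1.13, adjusted p = 0.00134) and without aged replicate 2 (-1.11, adjusted p = 0.00808).

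Pcdh11x was at -2.78 in aged hepatocytes (SE 0.16, edgeR adjusted p = 3.5e-06). It stood at 87.1 and 74.8 CPM in pericentral and 487 and 621 CPM in periportal sums of the aged libraries. In the young libraries the sums were 0.911 and 2.36 CPM in pericentral and 9.28 and 5.20 CPM in periportal sums, a log2 ratio of -1.85 that did not pass (SE 0.54, edgeR adjusted p = 0.0689). Across deciles of the score, aged Pcdh11x ran from 541 and 693 CPM in the most periportal decile to 63.0 and 33.1 CPM in the most pericentral one.

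Nebl was the only one of the 10 whose gradient differed between the ages by the test of the difference itself. In aged libraries it was lower in pericentral sums, at 129 and 84.7 CPM against 409 and 199 CPM in periportal sums (log2 ratio -1.45, SE 0.12, edgeR adjusted p = 1.9e-05). In young libraries it stood at 5.47 and 9.97 CPM in pericentral and 2.73 and 4.93 CPM in periportal sums, a log2 ratio of 1.01 that did not pass (SE 0.33, edgeR adjusted p = 0.107). The 4 libraries split by age in sign. The difference of the 2 ratios was -2.46 (SE 0.34, edgeR adjusted p = 0.0362), 1 of 14 such calls among 13897 genes (0.101%), 9 of them above 0 (0.0648%) and 5 below (0.0360%). Its call was lost without young replicate 1 (adjusted p = 0.142), without young replicate 2 (0.804), in nuclei with at least 1000 UMIs (0.145) and with zones of 50% of the nuclei (0.0504), and without clusters 9, 13 and 18 (adjusted p = 1), at differences between -2.71 and -1.88.

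Nxph1 ran the other way. It stood at 1029 and 175 CPM in pericentral and 240.1 and 10.9 CPM in periportal sums of aged replicates 1 and 2 (log2 ratio 2.90, SE 0.33, edgeR adjusted p = 2.1e-04). The young sums were 8.66 and 28.6 CPM in pericentral and 2.18 and 5.20 CPM in periportal sums, a log2 ratio of 2.37 that did not pass (SE 0.71, edgeR adjusted p = 0.0793). The pericentral sum was higher in all 4 libraries. Without aged replicate 1 the aged ratio exceeded the young one by 1.60 (edgeR adjusted p = 0.00992), a difference that did not pass with all 4 libraries. Gfra1 was modestly higher in pericentral sums at both ages, with log2 ratios of 0.49 in aged (SE 0.09, edgeR adjusted p = 0.00467) and 0.52 in young libraries (SE 0.09, edgeR adjusted p = 0.00739). The young call was lost without either young library (adjusted p = 0.119 and 0.127).

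Cdh18 was 677 and 1005 CPM in pericentral and 437 and 737 CPM in periportal sums of the aged libraries (log2 ratio 0.54, SE 0.10, edgeR adjusted p = 0.00354). In young libraries it was 48.3 and 71.1 CPM in pericentral and 60.6 and 82.7 CPM in periportal sums (log2 ratio -0.26, SE 0.12, edgeR adjusted p = 0.264, not passed). The profile over deciles showed that Cdh18 peaked inside the aged lobule and not at its end, at 815 CPM in decile 8 of aged replicate 1 and 1269 CPM in decile 7 of aged replicate 2. The most pericentral deciles were at 485 and 705 CPM. Ntrk2 and Fgf13 had log2 ratios of 0.29 and -0.44 in aged libraries and did not pass (edgeR adjusted p = 0.515 and 0.521).

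In aged replicate 2 clusters 9, 13 and 18 held 95.3% of the pericentral zone, so without them the zones no longer reached that end. Without them, with zones cut anew, the log2 ratio of Chrm3 was -4.11 in aged replicate 1 and -0.23 in aged replicate 2, that of Grm8 -3.61 and -0.38, that of Ncam2 -2.38 and -0.13, that of Pcdh11x -2.48 and -0.17, and that of Nebl -1.68 and -0.13. The gradients of aged replicate 1 were thus as steep as before, while those of aged replicate 2 were near 0 in nuclei that held few central vein landmarks. Of the 8 aged calls, 7 were then lost. The fitted ratio was -2.05 for Chrm3 (SE 0.81, edgeR adjusted p = 0.4999) and -1.31 for Pcdh11x (SE 0.48, adjusted p = 0.467). Since the pericentral end of aged replicate 2 was left out, these losses are no check of the gradients. Nxph1 still passed at 1.85 (SE 0.18, edgeR adjusted p = 0.00624). In the young libraries, where these clusters held at most 150 nuclei, Ncam2 still passed (adjusted p = 0.0478), Nxph1 passed as well (2.36, adjusted p = 0.0161), and Chrm3, Grm8 and Gfra1 did not (-3.06, -3.41 and 0.53, adjusted p = 0.166, 0.121 and 0.106). The zone fits share 1 estimate of the spread over all 4 libraries.

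**Figure D2:**
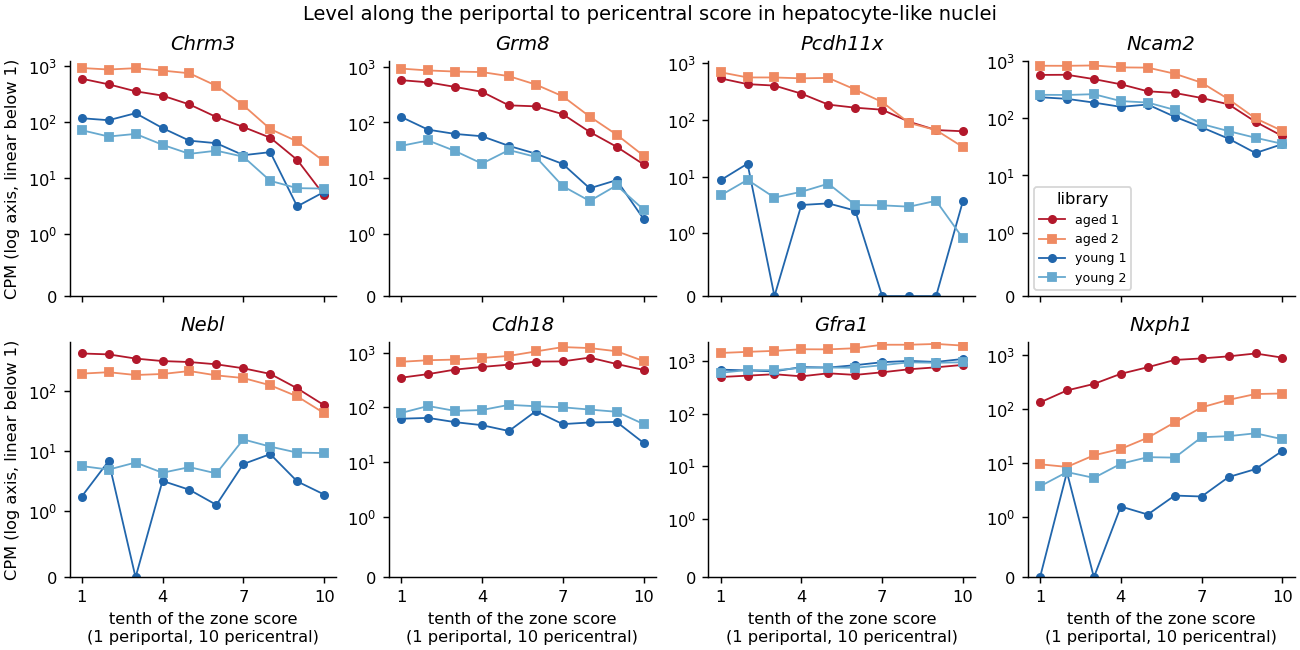
Level of 8 of the genes, in CPM on a log axis that is linear below 1, over deciles of the zone score from periportal (left) to pericentral (right), 1 line per library. Aged Chrm3 ran from 585 and 908 CPM in decile 1 to 4.88 and 19.7 CPM in decile 10, aged Nxph1 from 132 and 9.48 CPM to 883 and 192 CPM, and aged Cdh18 peaked in decile 7 or 8.

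Pairs of genes were also counted in the same nuclei. For each pair of genes, nuclei with both were set against the number expected if the genes were independent among nuclei of like depth, within deciles of depth of 1 library. Pcdh11x, Ncam2, Chrm3 and Grm8, grouped here after their zone ratios were seen, were found together more often than that. The 6 pairs had ratios of 1.23 to 1.64 in aged replicate 1 (median 1.35) and 1.19 to 1.36 in aged replicate 2 (median 1.25). Chrm3 with Grm8 was the highest pair in both, at 1.64 and 1.36. Their pairs with Nxph1 were below 1, at 0.649 and 0.471 for Chrm3 and 0.729 and 0.552 for Grm8. Cdh18 with Gfra1 was at 1.00 in both aged libraries. Gfra1 was in 62.0% and 89.5% of these nuclei, so the ratio had little room to leave 1 in aged replicate 2.

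When the expected number was taken among nuclei of the same zone and like depth, the ratios of the 6 pairs moved to between 1.06 and 1.13 in aged replicate 1 (median 1.07) and between 1.04 and 1.08 in aged replicate 2 (median 1.06). Chrm3 with Nxph1 moved to 0.843 and 0.889. In young libraries few pairs had 5 expected nuclei, 3 in young replicate 1 (ratios 1.46 to 2.06) and 4 in young replicate 2 (1.01 to 2.45). Among nuclei of the same zone and like depth these were 1.17 to 1.60 (median 1.26) and 0.977 to 1.78 (median 1.45), with few nuclei behind them. Within a class of nuclei, a ratio cannot exceed 1 over the share with the more common gene. In the periportal zone Chrm3 was in 84.5% of nuclei of aged replicate 2 and 5.40% of those of young replicate 2. The medians, which also cover different pairs, are therefore not compared between the ages. Nuclei of 1 library are not replicates, so the ratios carry no test.

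**Figure D3:**
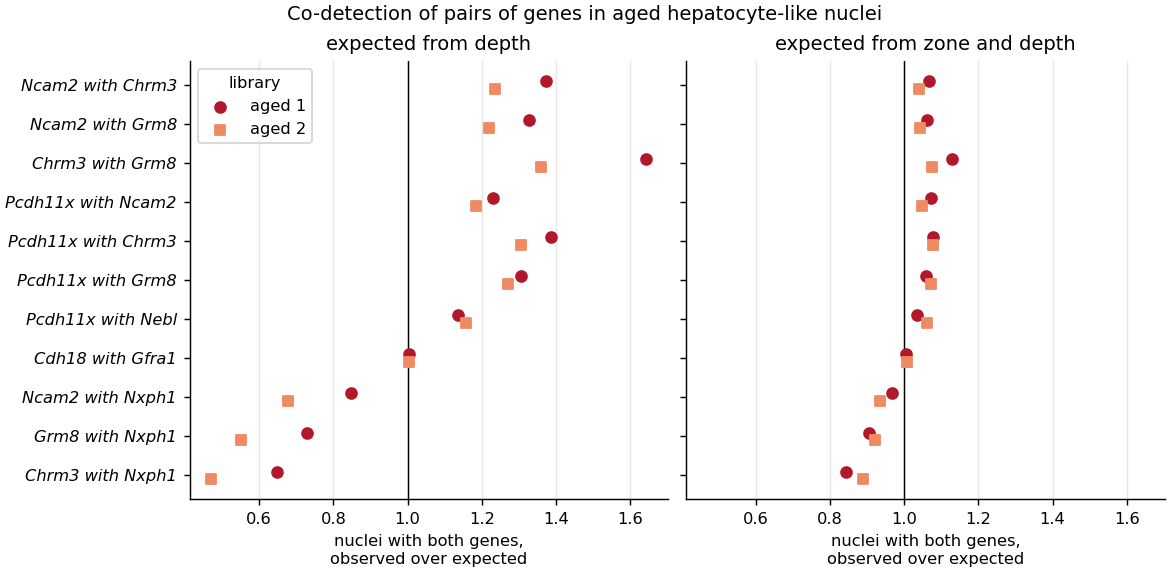
Observed over expected numbers of hepatocyte-like nuclei with both genes of a pair, for aged replicates 1 and 2, with the expected number taken within depth classes (left) or within zone and depth classes (right). Pairs among Pcdh11x, Ncam2, Chrm3 and Grm8 lie at 1.19 to 1.64 on the left and at 1.04 to 1.13 on the right, and the 3 pairs with Nxph1 that are drawn lie below 1.

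At 1000 UMIs a nucleus, aged hepatocyte-like nuclei held a mean of 2.07 and 2.66 of the 10 genes, and young ones 0.755 and 0.798. None of the 10 was seen in 7.50% and 2.84% of aged and in 37.5% and 35.1% of young nuclei. At least 3 were seen in 34.0% and 52.0% of aged and in 1.52% and 1.32% of young nuclei. At least 5 were seen in 2.99% and 9.09% of aged nuclei and in none of the 1317 and 3860 young ones. All of Pcdh11x, Ncam2, Chrm3 and Grm8 were together in 29 and 137 aged nuclei (0.728% and 1.93%) and in 0 young nuclei. In the young libraries the mean was only 0.00152 and 0.00363 Pcdh11x UMIs a nucleus at that depth. The 0 young nuclei were therefore fixed by the low level of Pcdh11x, and nothing is read from them. Counts of genes per nucleus restate levels with age, by which the genes were mainly chosen. They are no separate test of that contrast.

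**Figure D4:**
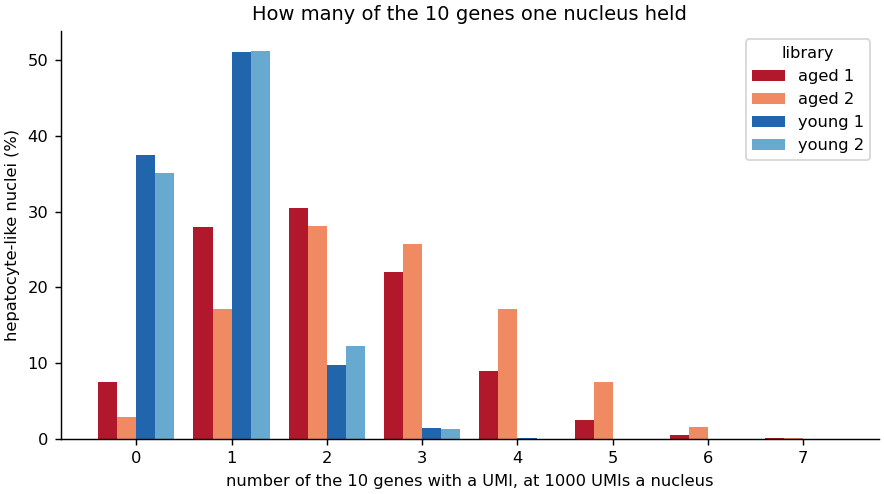
Share of hepatocyte-like nuclei, in percent, by how many of the 10 genes had a UMI after thinning to 1000 UMIs, for each library (bars, aged first). Most young nuclei held none or 1 of the genes, and 34.0% and 52.0% of aged nuclei held at least 3. The genes were chosen mainly by their levels with age, so this contrast is no separate test.

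In other cell classes the genes were seen along with hepatocyte RNA. The summed level of 12 hepatocyte transcripts (Alb, Apob, Cps1, Ghr, Abcb11, Mlxipl, Serpina1a, Fgb, Trf, Ttr, Acsl1 and Hnf4a) in stellate/fibroblast-like nuclei was 59.5% and 65.8% of its level in hepatocyte-like nuclei of the same library in aged and 86.6% and 73.1% in young libraries. In endothelial-like nuclei it was 72.2% and 85.6% in aged and 80.1% and 79.9% in young libraries. Endothelial-like Pcdh11x was at 83.3% and 68.4% of its hepatocyte level in the aged libraries. Its TMM-scaled level there was 216 and 256 CPM in aged and 0 and 2.06 CPM in young libraries (0 and 3 UMIs). Pcdh11x was the 1 of 10860 genes that passed with age in that class by edgeR (0.00921%). Since the genes were chosen on hepatocyte RNA, which these nuclei also held, that call is no separate test and nothing is read from it. Of the 8 genes tested there, 7 had both aged libraries above both young ones, as 24.3% of all genes had, and in stellate/fibroblast-like nuclei 7 of 9 had, as 27.1% of all genes had. The part of hepatocyte RNA in these differences was not tested. In aged endothelial-like nuclei under 50% of the hepatocyte transcript level, Pcdh11x stood at 54.9 and 62.1 CPM (13 and 15 UMIs), and in such young nuclei at 0 UMIs in both libraries. Those young sums were only 34 and 85 nuclei with 26801 and 77789 UMIs of all genes. Their 0 counts are therefore limited by depth, and no age difference is read from them. None of 12467 genes passed with age in stellate/fibroblast-like nuclei by edgeR (0%), with 2339 at an unadjusted p under 0.05 and 312 called by DESeq2.

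Stellate/fibroblast-like nuclei held Pcdh11x and Cdh18 at both ages. Pcdh11x was at 148 and 185 CPM in aged and 9.58 and 76.8 CPM in young stellate/fibroblast-like nuclei. Where these nuclei held under 50% of the hepatocyte transcript level, it was at 86.0 and 78.0 CPM in aged and 70.4 and 169 CPM in young libraries, a log2 fold change of -0.50 (SE 0.42, edgeR adjusted p = 0.710). In the same nuclei Cdh18 was at 165 and 249.5 CPM in aged and 195 and 194.5 CPM in young libraries (log2 fold change 0.19, SE 0.33, edgeR adjusted p = 0.885). The aged and young values of both genes overlapped there. These nuclei came from different clusters in the libraries, with 286 and 864 in cluster 5 and 37 and 61 in cluster 1 in aged libraries, and 114 and 30 in cluster 5 and 73 and 313 in cluster 1 in young libraries.

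Some of the genes were highest outside hepatocytes. Nxph1 was highest in mesothelial-like nuclei, at 1166 CPM in aged replicate 2 (209 UMIs, 130 nuclei) and 2480 and 737 CPM in young replicates 1 and 2 (95 and 60 UMIs). The highest Pcdh11x level of any class and library was also there, at 705 CPM in young replicate 1 (27 UMIs in 6 of 34 nuclei). Mesothelial-like Pcdh11x was at 184 CPM in aged replicate 2 (33 UMIs) and at 0 of 91 nuclei in young replicate 2 (floor 36.8 CPM). Chrm3 was highest in cholangiocyte-like nuclei, the lining of bile ducts, at 735 and 1221 CPM in aged replicates 1 and 2 and 269 CPM in young replicate 2. Among cholangiocyte-like nuclei under 50% of the hepatocyte transcript level it was at 855 and 1663 CPM in aged and 382 CPM in young replicate 2. Nebl in cholangiocyte-like nuclei was at 266 and 263 CPM in aged and 129 CPM in young libraries, which in young replicate 2 is above its 7.69 CPM in hepatocytes. Fgf13 was in aged libraries highest in T/NK-like nuclei, lymphocytes, at 133 and 282 CPM (42 and 285 UMIs), and was at 22.6 CPM in young replicate 2 (3 UMIs, at the floor). Young replicate 1 had 19 macrophage-like and 15 T/NK-like nuclei, under the minimum of 20, so these classes were not tested with age. Ntrk2 was at most 21.5 CPM in any class and library.

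**Figure D5:**
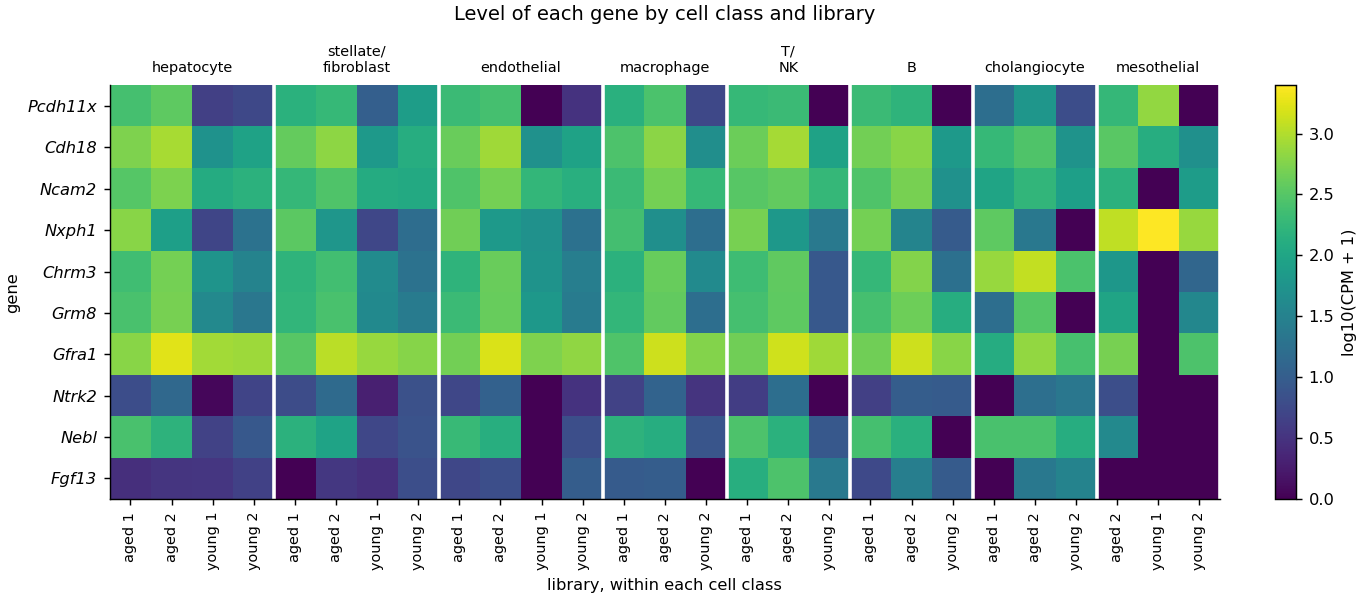
Level of each gene as log10 of CPM plus 1 (colour) by cell class and library, aged libraries left of young ones in each class. The brightest fields are Nxph1 in mesothelial-like nuclei (1166 CPM in aged replicate 2, 2480 and 737 CPM in young libraries), Gfra1 in several classes and Chrm3 in cholangiocyte-like nuclei (735 and 1221 CPM in aged libraries).

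Markers of nerve cells were near 0 in hepatocyte-like nuclei. Of 14 neuron markers, Syt1, a synaptic vesicle calcium sensor, was the only one over 10 CPM, at 128 and 130 CPM in aged and 104 and 49.9 CPM in young libraries. The other 13 summed to 3.22 and 2.48 CPM in aged and 2.43 and 4.39 CPM in young libraries. Nefl, a neurofilament gene, was at 0 in all 4 libraries. Of 10 Schwann cell markers, Egfr made up nearly all the sum and is a hepatocyte gene too. Without it the sum was 74.3 and 26.4 CPM in aged and 8.71 and 10.3 CPM in young libraries. Most of that aged sum was Cdh19, a cadherin of Schwann cells, at 66.3 and 18.2 CPM in aged and 0.143 and 0.300 CPM in young libraries. Sox10, which defines Schwann cells, was at 0.117 and 0 CPM in aged and at 0.143 and 0 CPM in young libraries.

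Relatives of these genes were tested from lists of the families they belong to. In the lists of protocadherins, cadherins, immunoglobulin adhesion molecules, neurotransmitter receptors, growth factor homologues, neurotrophin and GDNF signalling, neurexin partners and nebulins, 48 genes other than the 10 were tested with age in hepatocytes and none passed by edgeR, with 7 at an unadjusted p under 0.05. DESeq2 called 5 of them higher and 1 lower in aged libraries, or 12.5% of the 48, where it called 5.28% of all genes (3.25% higher and 2.03% lower). The higher ones were Cdh19, Chrm1, Lrrtm3, Cntn2 and Nfasc, led by Cdh19 (DESeq2 log2 fold change 7.62, SE 0.98, adjusted p = 1.7e-11). Young Cdh19 (0.143 and 0.300 CPM) and Cntn2 (0.286 and 0.300 CPM) were at or under the floor of 3 counts, 0.429 and 0.300 CPM. So was Chrm1 in young replicate 1 (0.286 CPM), but not in young replicate 2 (0.799 CPM). Young Lrrtm3 (2.29 and 0.599 CPM) and Nfasc (1.14 and 0.999 CPM) were above it. No trend of the families is read from these few calls. The lower one was Mcam, an endothelial adhesion molecule, at 0.409 and 0.245 CPM in aged and 2.57 and 4.29 CPM in young libraries. Of 12 protocadherins 7 were tested, Pcdh11x among them, and the median log2 fold change of the 7 was -0.37 against -0.02 over all genes. The hepatocyte cadherin Cdh2, N-cadherin, stood at 892 and 894 CPM in aged and 917 and 820 CPM in young libraries. In the aged zone test 7 of 40 relatives passed (17.5%), near the 17.0% of all genes, 5 higher and 2 lower in pericentral sums. The higher ones included Cdh2 (log2 ratio 0.93), Fgf14 (2.25), Sort1 (2.38) and Lrrtm3 (5.35), and the lower ones were Alcam (-1.02) and Dag1 (-0.42). The Lrrtm3 ratio rests on TMM-scaled periportal sums of only 0.505 and 0.526 CPM in aged replicates 1 and 2. In young libraries 3 of 40 passed (7.50%, against 8.02% of all genes), which were Cdh2, Alcam and Sort1 at 0.49, -1.04 and 1.23.

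All 10 genes are long. They span 220 kb (Gfra1) to 925 kb (Cdh18) in GENCODE vM21, longer than 94.6% to 99.5% of 15312 tested genes, and at most 5.89% of each is exon. On mm10, Pcdh11x lies on chromosome X from 120290259 to 120910619 (plus strand, ENSMUSG00000034755), Cdh18 on chromosome 15 from 22549022 to 23474418 (plus, ENSMUSG00000040420), and Nebl on chromosome 2 from 17343909 to 17731464 (minus, ENSMUSG00000053702). Ncam2 lies on chromosome 16 from 81200697 to 81626828 (plus), Chrm3 on chromosome 13 from 9875486 to 10360847 (minus), Grm8 on chromosome 6 from 27275119 to 28135178 (minus) and Nxph1 on chromosome 6 from 8948431 to 9249032 (plus). Genes of 200 to 400 kb, of which 578 were tested, had a median log2 fold change with age of 0.13, and 13.1% of them exceeded 1. The 346 genes over 400 kb had a median of 0.04, and 14.2% exceeded 1. Over all genes with a length the median was -0.02, and 14.1% exceeded 1.

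Across 27 sums of a cell class and library with at least 20 nuclei, the genes most like the mean of the 10 were Olfr1030 (Pearson r = 0.946), Rxfp1 (0.938), Olfr695 (0.919), Afp (0.915) and Prkag2 (0.912), out of 8915 genes compared. Only genes with a mean of at least 10 CPM in the aged hepatocyte-like sums were compared. The sums share 4 libraries and the hepatocyte RNA in them, so r is a description. That filter and the choice of the 10 genes both favour genes high in aged hepatocytes. Nothing is therefore read from the levels with age of the genes found. Rxfp1, the relaxin receptor, stood at 56.7 and 50.4 CPM in aged and 1.43 and 3.99 CPM in young hepatocytes, and Afp, alpha-fetoprotein of fetal liver, at 43.1 and 32.0 CPM in aged and 0.857 and 5.99 CPM in young ones. Each gene's own r with the mean of the other 9 was highest for Cdh18 (0.905) and Nebl (0.833) and lowest for Nxph1 (0.076).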

How the data were processed

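RNA was counted in nuclei of 2 aged and 2 young livers' libraries. The authors deposited raw UMI counts of each gene in each barcode, made with Cell Ranger 7.1.0 on mm10 per the submitters' processing notes. How introns and strand were counted is not given in the sources used here, so reads of overlapping or antisense genes cannot be told apart from these genes' own.

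The 10 genes, all lists and the tests were chosen with earlier results of these data known. Barcodes under 500 UMIs or 300 genes, or over 5% mitochondrial UMIs, were dropped. Scrublet's own threshold marked 0 barcodes and was not used. The highest-scoring barcodes were removed instead, at 0.8% per 1000 barcodes (42 to 1631 a library). This left 7216 and 11892 aged and 1935 and 12219 young nuclei. Nuclei were clustered with scanpy 1.11.5 (2000 variable genes without the 10, which left 1994, 30 components, 20 neighbours, Leiden at resolution 1 with igraph 0.11.9, no integration). A cluster was named for another class from at least 3 leading markers, and otherwise hepatocyte-like from at least 3 hepatocyte markers seen in at least 5% of its nuclei. That order was set after the clusters were seen. These names are not the study's own.

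Counts were summed per library and class (and zone) and tested with edgeR 4.0.16 (R 4.3.3) by its quasi-likelihood test after filterByExpr and TMM scaling, with Benjamini-Hochberg adjustment over all genes tested and a threshold of 0.05. Age was the only term for classes with at least 20 nuclei in each library. Zone fits had the library as a block and left out the landmarks. The SE beside an edgeR value is its absolute size divided by the square root of the F statistic, since that test gives no SE. CPM without further words are counts per 1000000 UMIs of the class in that library. DESeq2 1.42.0, another scaling, other filters on nuclei and genes, zones of 50% and leaving out each library were alternatives. The fits were tested on simulated counts. The rule for named genes took all 10, relatives that passed a test (up to 5 a list) and the 5 genes most like their mean, and 1 relative that passed is not reported here. Intervals and the floor of 3 counts cover counting error only. The replicate numbers did not pair the libraries. The labels give no shared animal or day, and replicate 1 minus 2 correlated at r = -0.209 between ages across 15319 genes.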

Additional observations from a re-analysis of the deposited data

Results flagged for a closer look

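Nebl differed in its zone ratio between the ages by the test of the difference itself. The log2 ratio of pericentral over periportal was -1.67 and -1.24 in aged and 1.00 and 1.02 in young libraries, a difference of -2.46 (SE 0.34, edgeR adjusted p = 0.0362). Without clusters 9, 13 and 18 the difference was -1.96 (SE 0.73, adjusted p = 1). That setting lacks most of the pericentral zone of aged replicate 2. The young sums rest on few UMIs, at 2.73 and 4.93 CPM in the periportal and 5.47 and 9.97 CPM in the pericentral sums.

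Cdh18 had zone ratios of opposite sign in the ages, 0.63 and 0.45 in aged and -0.33 and -0.22 in young libraries. The difference was 0.80 (SE 0.15) and did not pass (edgeR adjusted p = 0.221). It passed without aged replicate 1 (0.68, adjusted p = 0.0305) and without aged replicate 2 (0.87, adjusted p = 0.00207), and did not without clusters 9, 13 and 18 (0.60, adjusted p = 1). No group had the 4 libraries that a test for single outlying samples needs.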

How the results depend on the processing

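The zone effects of the 10 genes in aged hepatocytes stayed on the same side of the threshold in 113 of 120 alternative values. The other 7 were all without clusters 9, 13 and 18, which takes out 95.3% of the pericentral zone of aged replicate 2. In young hepatocytes 102 of 120 stayed on the same side, and for the zone by age effect 130 of 140. A change of direction was counted only where the main or the alternative fit passed. No member's call reversed. Counts of calls moved more. Age calls in hepatocytes (5) were 1507 with no filter on low counts, 809 with DESeq2 and 220 to 1229 without one library. Stellate/fibroblast-like calls (0) were 1270 with no filter, 312 with DESeq2 and 101 to 1393 without one library. Endothelial-like calls (1) were 409 with no filter, 55 with DESeq2, 3 to 431 without one library, and 0 with no doublet removal or in nuclei under 50% of the hepatocyte transcript level. DESeq2 gave 1097 aged zone calls (2369) and 682 young ones (1114), and without one library these were 1753 to 2376 and 319 to 1802. Zone by age calls (14) were 0 to 238 without one library and 5 in nuclei with at least 1000 UMIs. A lone library in a group is there assumed to vary like the others. Without clusters 9, 13 and 18, left out after the data were seen, calls were 17 with age in hepatocytes, 71 for the aged zones, 309 for the young zones and 0 for zone by age. With the replicate number as a block, calls were 11 in hepatocytes, 1 in stellate/fibroblast-like nuclei, 0 in endothelial-like nuclei and 25 for zone by age. A crossed pairing, added after the data were seen because the numbers correlated negatively, gave 88, 739, 10 and 19 calls. The cause of these shifts was not tested.

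The mean thinned share of nuclei with Pcdh11x was 14.3% in aged and 0.257% in young libraries. It was 9.48% and 0.162% at 500 UMIs, 22.3% and 0.626% unthinned, and 13.0 to 15.6% and 0.152 to 0.363% without one library. The median co-detection ratio was 1.35 and 1.25 in aged replicates 1 and 2, 1.52 and 1.31 after thinning without depth classes, and 1.07 and 1.06 within zone and depth classes, an alternative added after the data were seen. Macrophage-like and T/NK-like age tests were not run, since young replicate 1 held 19 and 15 nuclei. With 1 to 77 UMIs, young Ntrk2, Fgf13, Nebl and Pcdh11x values are limited by depth.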
